A study of Mus musculus with 5 samples.

Results

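Chemokines are small secreted proteins that guide white blood cells along a gradient, each through its own seven-helix receptors, and ICAM-1 is the surface protein to which the integrins of arriving leukocytes bind on endothelium and epithelium. In tumours the CXCR3 ligands Cxcl9 and Cxcl10 are known as interferon-induced attractants of T and NK cells, and the CXCR2 ligands as attractants of neutrophils. This account follows 9 chemokine genes and Icam1, 10 of the 54532 genes of the deposited count table, taken by gene symbol in all 5 tumours of a mouse small cell lung cancer study. All 10 symbols were found once each, and all 10 had enough reads to be tested.

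The LSN group held 3 lung tumours and the Vehicle group 2, and every tumour carried the genotype that the labels call RPP without expanding the letters. LSN is the label of the treatment, which the series describes as an Aurora A kinase inhibitor. The sources used here give neither dose, duration nor the age of the mice, and do not tie a tumour to an animal, so that a p-value reflects only how far these 5 tumours spread. The tumours were pieces of tissue frozen at necropsy. In such bulk samples, fewer cells of a type and less RNA per cell cannot be told apart.

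Total counts ran between 17870505 and 19766604 in the LSN tumours and between 17439049 and 17804648 in the Vehicle tumours. The 10 genes were tested together with all others by edgeR, and levels are given as CPM, each gene's count over the library's size after scaling by TMM, a correction for library composition. All 10 listed markers of neuroendocrine tumour cells were tested, and their summed level was 4687, 8177 and 6665 CPM in LSN replicates 1, 2 and 3 and 7037 and 2811 CPM in Vehicle replicates 1 and 2, lowest in Vehicle replicate 2. Markers of normal lung epithelium, such as surfactant genes, were present too. Their summed level was 376 to 1902 CPM in the LSN tumours and 6552 to 8688 CPM in the Vehicle tumours.

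The 10 genes lie on 4 chromosomes, with positions as in the deposited table (mm10). Cxcl9, Cxcl10, Cxcl2 and Cxcl5 are on chromosome 5, where Cxcl9 and Cxcl10 are neighbours with 18558 bases between them. Ccl2, Ccl3, Ccl4 and Ccl5 are on chromosome 11, with 13228 bases between Ccl3 and Ccl4. The minus strand holds Cxcl9 at chr5:92321347-92328079, Cxcl10 at chr5:92346638-92348889, Ccl5 at chr11:83525778-83530518 and Ccl3 at chr11:83647844-83649355. The plus strand holds Cxcl2 at chr5:90903871-90905938, Cxcl5 at chr5:90759360-90761624, Ccl2 at chr11:82035571-82037453, Ccl4 at chr11:83662584-83664683, Cxcl12 at chr6:117168535-117181367 and Icam1 at chr9:21015985-21028817. The libraries did not keep the strand, and Cxcl10 overlaps Art3 on the opposite strand, which had 268 counts over the 5 tumours. Icam1 overlaps the predicted gene Gm47079, with 28 counts.

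Upstream sequences are shown for 5 genes, because the pair Cxcl9 and Cxcl10 shares a receptor but not a pattern across tumours, Icam1 and Cxcl12 had the lower LSN means with the most reads, and Cxcl2 was at its floor in some tumours. Each is the 250 bases before the RefSeq start in the build GRCm38.p6, 5′ to 3′ on the gene's strand. Capitals mark matches, on either strand, to 3 short patterns spelt out after the sequences had been seen, a kB core (GGNNNTTCC, bound by NF-kB), an ISRE core (GAAA, any 2 bases, GAAA, bound by interferon-activated complexes) and a GAS core (TTCNNNGAA, known from interferon gamma response elements).
Cxcl9 (chr5:92328080-92328329, minus strand): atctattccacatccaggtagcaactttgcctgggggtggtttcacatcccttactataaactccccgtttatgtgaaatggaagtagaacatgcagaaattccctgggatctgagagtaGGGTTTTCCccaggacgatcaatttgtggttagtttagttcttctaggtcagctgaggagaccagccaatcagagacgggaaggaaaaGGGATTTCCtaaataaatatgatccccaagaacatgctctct
Cxcl10 (chr5:92348890-92349139, minus strand): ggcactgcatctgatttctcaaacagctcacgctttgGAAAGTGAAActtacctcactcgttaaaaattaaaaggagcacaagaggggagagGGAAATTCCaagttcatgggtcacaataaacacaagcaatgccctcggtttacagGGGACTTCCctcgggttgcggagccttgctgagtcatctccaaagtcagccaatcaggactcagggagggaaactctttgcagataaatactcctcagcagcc
Cxcl2 (chr5:90903649-90903898, plus strand): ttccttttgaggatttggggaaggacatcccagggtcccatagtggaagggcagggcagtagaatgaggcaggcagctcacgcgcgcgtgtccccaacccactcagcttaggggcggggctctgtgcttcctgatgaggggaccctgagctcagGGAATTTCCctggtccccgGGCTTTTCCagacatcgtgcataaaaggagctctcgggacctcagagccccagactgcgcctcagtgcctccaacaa
Icam1 (chr9:21015690-21015939, plus strand): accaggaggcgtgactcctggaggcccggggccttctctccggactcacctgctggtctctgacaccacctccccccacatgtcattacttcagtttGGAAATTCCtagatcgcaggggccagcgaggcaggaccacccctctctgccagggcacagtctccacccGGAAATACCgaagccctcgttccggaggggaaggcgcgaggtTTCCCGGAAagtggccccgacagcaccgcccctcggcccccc
Cxcl12 (chr6:117168285-117168534, plus strand): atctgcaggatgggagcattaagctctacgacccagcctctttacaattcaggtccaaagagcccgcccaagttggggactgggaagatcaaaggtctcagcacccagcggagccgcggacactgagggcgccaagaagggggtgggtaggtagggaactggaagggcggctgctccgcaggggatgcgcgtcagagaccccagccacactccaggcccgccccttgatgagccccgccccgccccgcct

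In these windows all capitals are kB cores except the first capital run of Cxcl10, an ISRE core, and the last of Icam1, a GAS core. Cxcl9, Cxcl10, Cxcl2 and Icam1 each held 2 stretches with the kB core, whereas Cxcl12 and Ccl3 held none of the 3 patterns. Among 32851 RefSeq windows of the same length, 15.66% held the kB core, 2.98% the ISRE core and 7.02% the GAS core. RefSeq windows were matched for 6 of the 10 genes, and Ccl5, Ccl2, Ccl4 and Cxcl5 were not matched. A match is a string of letters and not a measured site.

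None of the 10 genes passed an adjusted p of 0.05 in edgeR, as was the case for every gene tested (0 of 17906, 0%). The members had log2 fold changes (LSN over Vehicle) above 0 for 5 genes and below 0 for 5, with a median of -0.06, against 0.03 over all genes tested, of which 53.2% were above 0. At an unadjusted p under 0.05 there were 2 members, Icam1 and Cxcl5, both lower with LSN, where 764 of all genes tested (4.27%) reached that level and 3.21% did so downward. The same 2 genes were the only members with every LSN tumour below both Vehicle tumours, which held for 10.4% of all genes, and 0 members had every LSN tumour above both Vehicle tumours, against 8.48% of all genes. DESeq2 called 111 genes of the 16805 that it gave an adjusted p (0.661%), none of them a member, with Icam1 the lone member at an unadjusted p under 0.05, a level that 6.73% of genes reached. Limma-voom called 0 genes and had 1 member, Cxcl5, at an unadjusted p under 0.05, against 4.79% of all genes.

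**Figure D1:**
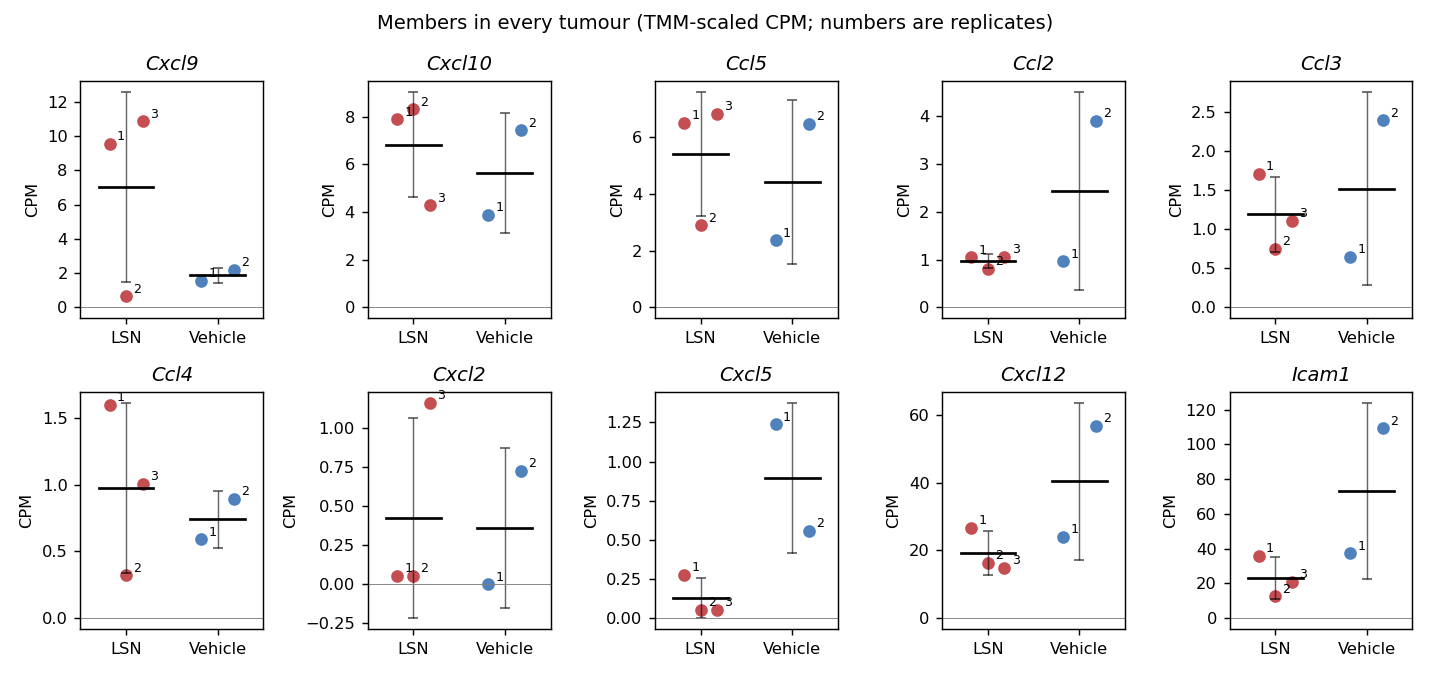
TMM-scaled CPM of each of the 10 genes in every tumour, LSN at the left and Vehicle at the right of each panel, each on its own linear axis. Points are tumours with their replicate number, thick lines are means and thin bars the SD (n = 3 and n = 2), and the panels show the groups apart for Icam1 and Cxcl5 only.

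Per length of transcript, Icam1 and Ccl5 were the most abundant of the 10 genes. In TPM, which divides each gene's count by its length before scaling to the library, the median over the 5 tumours was 29.7 for Icam1, 22.3 for Ccl5, 11.4 for Cxcl10 and 10.2 for Cxcl12. These 4 medians lay above those of 64.4, 57.3, 41.8 and 39.7% of the tested genes, in the same order. Ccl4, Ccl3, Ccl2 and Cxcl9 followed with medians of 4.68, 4.56, 2.96 and 2.50 TPM, and Cxcl5 and Cxcl2 came last at 0.541 and 0.0974 TPM. The order shifted between tumours. Icam1 was first by TPM in LSN replicate 1 and both Vehicle tumours, Cxcl10 in LSN replicate 2 and Ccl5 in LSN replicate 3. Cxcl9 ranged most among the genes with at least 10 counts everywhere, and it stood in place 3 in LSN replicate 3 and in place 9 in Vehicle replicate 1. Neighbours in this order, such as Cxcl10 and Cxcl12 or Ccl3 and Ccl4, did not differ beyond their spread between tumours.

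Cxcl9 was high in 2 LSN tumours and low in the other tumours of either group. It had 9.55, 0.643 and 10.9 CPM in LSN replicates 1, 2 and 3, against 1.56 and 2.18 CPM in Vehicle replicates 1 and 2. LSN replicate 2, with 12 counts, had the lowest level of all 5 tumours, so the groups overlapped. The means were 7.02 ± 5.56 CPM with LSN (SD, n = 3) and 1.87 ± 0.437 CPM with Vehicle (SD, n = 2), and the log2 fold change was 1.91 ± 1.21 (SE; edgeR, unadjusted p = 0.172, adjusted p = 0.9996). Without LSN replicate 1, 2 or 3 it was 1.61, 2.44 and 1.45 (edgeR, unadjusted p = 0.284, 0.0117 and 0.339), without a call after adjustment. The fit with the smallest p drops the lowest LSN tumour, so it lends no weight to a difference. The summed T and NK cell markers were also lowest in LSN replicate 2, at 15.2 CPM, against 36.3 and 38.6 CPM in LSN replicates 1 and 3 and 19.7 to 42.3 CPM in the Vehicle tumours. Their part in the result was not tested.

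Cxcl10, the other CXCR3 ligand, varied much less. It had 7.90, 8.31 and 4.29 CPM in LSN replicates 1, 2 and 3, against 3.87 and 7.42 CPM in Vehicle replicates 1 and 2. The highest value was in LSN replicate 2, the tumour with the least Cxcl9. The highest tumour was 2.15-fold above the lowest for Cxcl10 and 16.9-fold for Cxcl9. The groups overlapped, and the log2 fold change of Cxcl10 was 0.27 ± 0.59 (SE; edgeR, unadjusted p = 0.661).

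Within the reads of this pair, the share of Cxcl9 set the tumours far apart. Cxcl9 made up 54.7% of the Cxcl9 and Cxcl10 reads in LSN replicate 1 (exact 95% binomial interval 49.1 to 60.3%), 7.19% in LSN replicate 2 (3.77 to 12.2%) and 71.7% in LSN replicate 3 (66.1 to 76.8%). In Vehicle replicates 1 and 2 it was 28.7% (20.2 to 38.6%) and 22.7% (16.7 to 29.7%). The intervals of the 3 LSN tumours overlapped neither one another nor those of the Vehicle tumours, and the 2 Vehicle intervals overlapped each other. A share within a tumour does not depend on scaling between libraries, and the intervals cover counting error only.

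**Figure D2:**
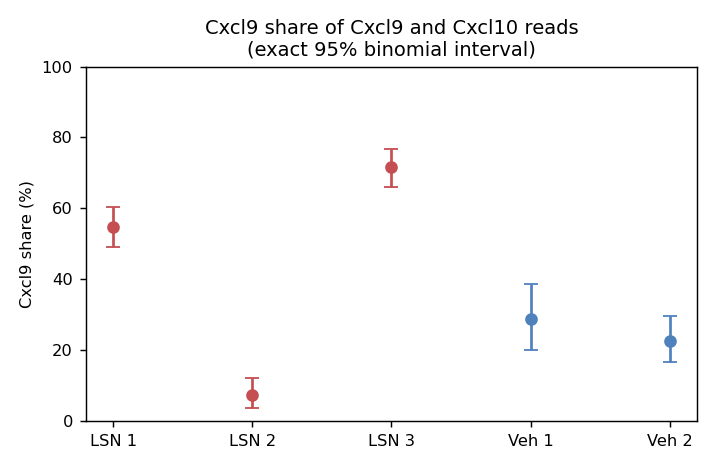
Share of Cxcl9 among the reads of Cxcl9 and Cxcl10 in each tumour (%), with exact 95% binomial intervals as bars, LSN tumours in red and Vehicle tumours in blue. The LSN tumours lie at 54.7, 7.19 and 71.7% and the Vehicle tumours at 28.7 and 22.7%, between the LSN values.

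Genes of the interferon signal known to induce these ligands were sparse, overlapped between groups or lay close together. Ifng, the cytokine that induces Cxcl9, had at most 0.0529 CPM in an LSN tumour and 0.223 CPM in a Vehicle tumour, levels near that of 3 counts (0.159 to 0.167 CPM). Irf1, an interferon-induced factor, had 50.7, 65.8 and 62.0 CPM in the LSN tumours, against 39.0 and 50.2 CPM in the Vehicle tumours, with LSN replicate 1 and Vehicle replicate 2 nearly level and a log2 fold change of 0.42 ± 0.27 (SE; edgeR, unadjusted p = 0.175). Irf7, a regulator of type I interferon genes, had its highest level in LSN replicate 2, at 69.3 CPM, against 28.2 and 13.0 CPM in LSN replicates 1 and 3 and 11.1 and 21.6 CPM in the Vehicle tumours. The receptor gene Cxcr3 had 1.05, 0.322 and 1.38 CPM in LSN replicates 1, 2 and 3, against 0.108 and 2.57 CPM in Vehicle replicates 1 and 2. Of 15 tested genes of a list of 18 interferon signalling genes, 0 passed in either direction, as was the case for all 17906 genes tested. Of the 15, 12 had a log2 fold change above 0, against 53.2% of all genes, and the median was 0.13.

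The CC chemokines Ccl5, Ccl3 and Ccl4 attract T cells, NK cells and monocytes, and they overlapped between groups. Ccl5 had 6.52, 2.89 and 6.83 CPM in LSN replicates 1, 2 and 3, against 2.37 and 6.48 CPM in Vehicle replicates 1 and 2. Ccl3 had 1.71, 0.750 and 1.11 CPM in the LSN tumours, against 0.645 and 2.40 CPM in the Vehicle tumours. Ccl4 had 1.60, 0.322 and 1.01 CPM in the LSN tumours, against 0.592 and 0.893 CPM in the Vehicle tumours. All 3 genes were low in LSN replicate 2 and Vehicle replicate 1. For Ccl5 and Ccl3 each group thus held tumours at either end, whereas both Vehicle values of Ccl4 lay between LSN values. Their log2 fold changes were 0.29 ± 0.72 for Ccl5, -0.35 ± 0.81 for Ccl3 and 0.39 ± 0.86 for Ccl4 (SE; edgeR, unadjusted p = 0.6996, 0.6795 and 0.6642). Ccl5 made up 66.3 to 76.3% of the reads of these 3 chemokines in the LSN tumours and 65.7 and 66.3% in the Vehicle tumours.

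Ccl2, a CCR2 ligand that draws monocytes, stood out in a single tumour. It had 1.05, 0.804 and 1.06 CPM in LSN replicates 1, 2 and 3, against 0.968 and 3.91 CPM in Vehicle replicates 1 and 2. Only Vehicle replicate 2 was apart, at 4.04 times the level of Vehicle replicate 1. The log2 fold change was -1.32 ± 0.76 (SE; edgeR, unadjusted p = 0.139), and without Vehicle replicate 2 it was 0.006. The macrophage and monocyte markers summed to 697 to 1007 CPM in the LSN tumours and to 504 and 2016 CPM in Vehicle replicates 1 and 2, but Chil3 alone made 1159 CPM of the last sum. Without Chil3 the sums were 861, 640 and 624 CPM in LSN replicates 1, 2 and 3 and 323 and 857 CPM in Vehicle replicates 1 and 2, so that Vehicle replicate 2 was not the highest, and 10 of the 15 markers had a log2 fold change above 0. The part of these cells in the Ccl2 values was not tested. The receptor gene Ccr2 followed another order. It had 2.21, 2.20 and 3.07 CPM in the LSN tumours, against 14.5 and 7.37 CPM in Vehicle replicates 1 and 2, lower in every LSN tumour, with a log2 fold change of -2.13 ± 0.55 (SE; edgeR, adjusted p = 0.9996, and DESeq2, adjusted p = 0.019).

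The CXCR2 ligands Cxcl2 and Cxcl5, which attract neutrophils, rested on few reads. Cxcl5 had 5, 1 and 1 counts in LSN replicates 1, 2 and 3, against 23 and 10 counts in Vehicle replicates 1 and 2. Every LSN tumour was below both Vehicle tumours, but the counting intervals of LSN replicate 1 (0.0897 to 0.644 CPM) and Vehicle replicate 2 (0.268 to 1.03 CPM) overlapped. The log2 fold change was -2.76 ± 0.98 (SE; edgeR, unadjusted p = 0.034, adjusted p = 0.9996), and DESeq2 gave the gene no adjusted p because of its low counts. Cxcl2 had 1, 1 and 22 counts in LSN replicates 1, 2 and 3, against 0 and 13 counts in Vehicle replicates 1 and 2. Each group thus held tumours near 0 and 1 tumour with more reads, the log2 fold change was 0.23 ± 1.89 (SE; edgeR, unadjusted p = 0.907), and the count of 0 in Vehicle replicate 1 has an exact 95% counting interval up to 0.198 CPM (3 counts there are 0.161 CPM). Neutrophil markers summed to 7.66 to 17.3 CPM in the LSN tumours and 27.6 and 61.0 CPM in the Vehicle tumours, and without Hdc to 10.2, 6.32 and 15.4 CPM in the LSN tumours and 7.42 and 33.6 CPM in the Vehicle tumours, where the groups overlapped. The defining marker Ly6g was at 0 counts in all 5 tumours. Of the 8 tested markers, 3 were lower in every LSN tumour, against 10.4% of all genes tested. The receptor gene Cxcr2 had 0.221, 0.214 and 1.27 CPM in the LSN tumours, against 0.430 and 3.35 CPM in Vehicle replicates 1 and 2. The part of neutrophils in these values was not tested.

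Cxcl12, the CXCR4 ligand made by stromal cells, had the second most reads of the 10 genes. It had 26.7, 16.3 and 14.8 CPM in LSN replicates 1, 2 and 3, against 24.1 and 56.9 CPM in Vehicle replicates 1 and 2. Only LSN replicate 1 was above a Vehicle tumour, and Vehicle replicate 2 was far above the rest. The means were 19.3 ± 6.45 CPM with LSN (SD, n = 3) and 40.5 ± 23.2 CPM with Vehicle (SD, n = 2), with a log2 fold change of -1.07 ± 0.49 (SE; edgeR, unadjusted p = 0.0745, adjusted p = 0.9996). It was -0.32 (edgeR, unadjusted p = 0.582) without Vehicle replicate 2. Fibroblast and smooth muscle markers summed to 484 to 896 CPM in the LSN tumours and 819 and 1672 CPM in the Vehicle tumours. Of these 12 markers, 5 were lower in every LSN tumour, against 10.4% of all genes tested. The part of these cells in the result was not tested. The receptor gene Cxcr4 had 39.8, 45.0 and 55.9 CPM in the LSN tumours, against 31.8 and 94.2 CPM in the Vehicle tumours.

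Icam1 had 35.9, 12.5 and 20.9 CPM in LSN replicates 1, 2 and 3, against 37.2 and 109.2 CPM in Vehicle replicates 1 and 2. Every LSN tumour was below both Vehicle tumours, but LSN replicate 1 and Vehicle replicate 1 were nearly level, with counting intervals of 33.2 to 38.8 CPM and 34.5 to 40.1 CPM that overlapped. The means were 23.1 ± 11.9 CPM with LSN (SD, n = 3) and 73.2 ± 50.9 CPM with Vehicle (SD, n = 2). The log2 fold change was -1.66 ± 0.63 (SE; edgeR, unadjusted p = 0.0411, adjusted p = 0.9996), and DESeq2 gave an adjusted p of 0.479. Vehicle replicate 2 was 2.93 times as high as Vehicle replicate 1, and without it the log2 fold change was -0.69 (edgeR, unadjusted p = 0.354).

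Lung epithelium and endothelium are known to carry Icam1, and most of their markers were also below both Vehicle tumours. This held for 10 of the 12 genes of normal lung epithelium, all 12 of which had a log2 fold change below 0. It held for 9 of the 10 endothelial genes, all but Vwf, against 10.4% of all genes tested. The sum of those 9 genes was 128, 124 and 93.9 CPM in LSN replicates 1, 2 and 3 and 248 and 466 CPM in Vehicle replicates 1 and 2, and with Vwf the sums overlapped, at 181 to 665 CPM in the LSN tumours and 516 and 687 CPM in the Vehicle tumours. Icam2, another ligand of the same integrin and a gene of endothelium, had 3.70, 2.68 and 2.28 CPM in the LSN tumours, against 8.82 and 14.6 CPM in the Vehicle tumours, with a log2 fold change of -2.02 ± 0.53 (SE; edgeR, adjusted p = 0.9996, and DESeq2, adjusted p = 0.0184). Vcam1, the adhesion molecule bound by integrin alpha 4, was highest in LSN replicate 1, with 117.7, 20.6 and 43.2 CPM in the LSN tumours and 28.2 and 41.6 CPM in the Vehicle tumours. Itgal and Itgb2, which encode the subunits of the integrin LFA-1 that binds ICAM-1, had 8.15 to 17.2 and 31.6 to 54.3 CPM in the LSN tumours, against 12.4 and 26.3 CPM and 18.6 and 112.5 CPM in the Vehicle tumours, so both overlapped. Vehicle replicate 2, which had the most Icam1, Cxcl12 and Ccl2, also had the lowest neuroendocrine marker level, with a mean log2 CPM at -0.06 to 0.28 from the 5-tumour mean in the LSN tumours and at 0.36 and -0.83 in Vehicle replicates 1 and 2. The part of tumour-cell, epithelial, endothelial and leukocyte content in the Icam1 values was not tested.

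**Figure D3:**
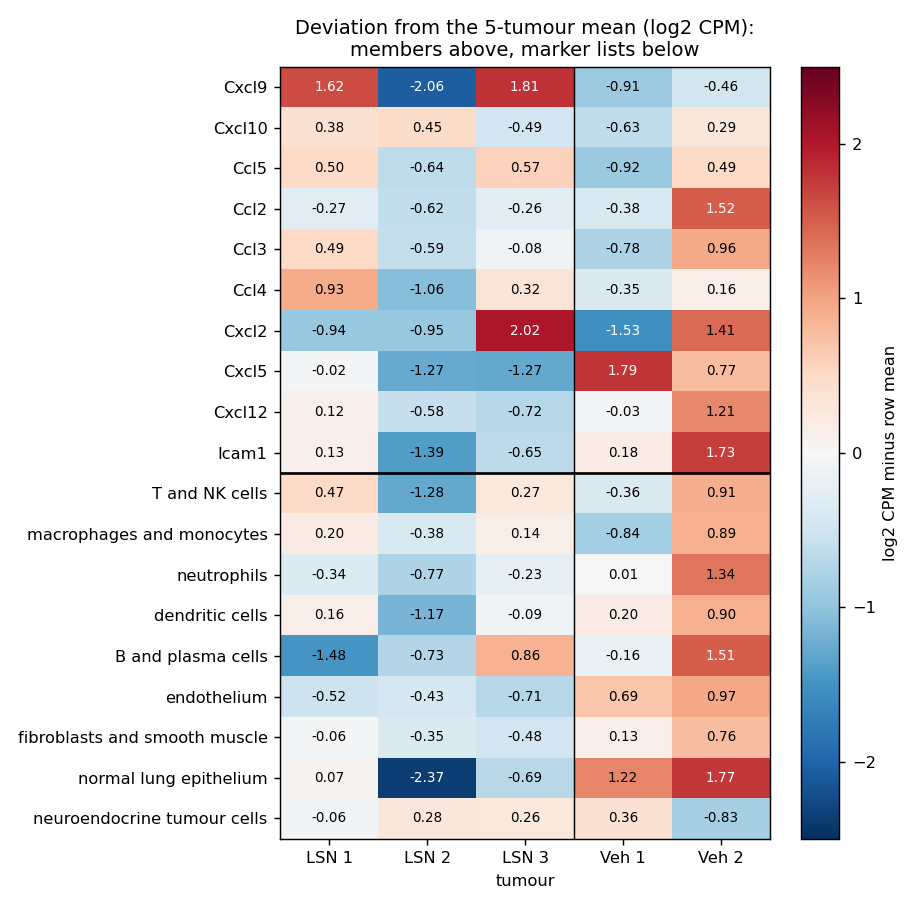
Log2 CPM of each of the 10 genes (rows above the line) and mean log2 CPM of each marker list (rows below) in every tumour, each row minus its mean over the 5 tumours, LSN at the left and Vehicle at the right. Icam1 is at 0.13, -1.39 and -0.65 in the LSN tumours and 0.18 and 1.73 in the Vehicle tumours, and normal lung epithelium at 0.07, -2.37 and -0.69 against 1.22 and 1.77 in the Vehicle tumours.

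NF-kB is the best known activator of Icam1 and of several of these chemokines. None of its listed genes passed in edgeR, but none of the 17906 genes tested did, so this is no result about NF-kB. Of 27 tested members of a list of 29, 12 had a log2 fold change above 0 and 15 below, against 53.2% above 0 over all genes. The median was -0.08. Rela and Nfkb1, which encode its main subunits, had 67.2 to 111 and 39.7 to 95.6 CPM in the LSN tumours, against 62.1 and 77.1 CPM (Rela) and 67.3 and 60.4 CPM (Nfkb1) in the Vehicle tumours. Relb had 11.4, 16.6 and 9.53 CPM in the LSN tumours, against 9.84 and 18.1 CPM in the Vehicle tumours. The feedback inhibitors Nfkbia and Tnfaip3 were highest in Vehicle replicate 2, at 66.4 and 31.8 CPM, against 29.8 and 9.41 CPM in Vehicle replicate 1, with 27.8 to 38.3 and 10.01 to 26.3 CPM in the LSN tumours. The smallest unadjusted p of the list belonged to Traf1, an NF-kB target (0.137), Ikbkg, the gene of NEMO (0.139), and Il1r1, the interleukin 1 receptor (0.143).

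Most other chemokine genes were lower with LSN on average. Of 11 tested CC chemokines outside the 10 genes, 10 had a log2 fold change below 0 with a median of -0.79, and of 9 tested CXC and CX3C chemokines 7 were below 0 with a median of -0.87, against 46.8% below 0 and a median of 0.03 over all genes. In edgeR 0 of these 20 genes passed, as was the case for all 17906 genes tested. Of the 20, 6 were lower in every LSN tumour, against 10.4% of all genes. Cxcl15, a chemokine of lung epithelium, had 60.8, 15.9 and 40.3 CPM in the LSN tumours, against 185.8 and 430.8 CPM in the Vehicle tumours, with a log2 fold change of -2.98 ± 0.65 (SE; edgeR, adjusted p = 0.9996, and DESeq2, adjusted p = 0.00976). Ccl17, a CCR4 ligand of dendritic cells, had 0.552, 0.214 and 0.159 CPM in the LSN tumours, against 1.67 and 2.23 CPM in the Vehicle tumours. Ccl28 and Ccl7 were lower in every LSN tumour as well, with log2 fold changes of -2.24 and -1.69, and Cxcl14 and Cxcl17 had -2.19 and -2.34. For Ccl28 only Vehicle replicate 1 stood apart, at 57 counts, against 10 in Vehicle replicate 2 and 7, 6 and 8 in the LSN tumours. Cxcl14 overlapped between groups, with 5.41, 11.9 and 4.02 CPM in the LSN tumours and 8.71 and 56.4 CPM in Vehicle replicates 1 and 2. Of 19 tested chemokine receptors 12 were below 0, with a median of -0.54. Of the 19, 3 were lower in every LSN tumour, against 10.4% of all genes. These were Ccr2 and the decoy receptor genes Ackr2 and Ackr3, the last 2 at -1.82 and -1.26. Ackr1, the decoy receptor of venules, had 3.48, 0.107 and 0.371 CPM in the LSN tumours, against 0.323 and 2.85 CPM in the Vehicle tumours. Of 15 tested adhesion genes 12 were below 0, with a median of -0.56, among them Pecam1 of endothelium at -1.49 and Itga4, the integrin alpha 4 gene, at -1.23. Without Vehicle replicate 2 the medians of CC chemokines, receptors, adhesion genes and NF-kB genes were 0.11, 0.44, 0.29 and 0.33, whereas that of the CXC and CX3C chemokines was -0.91.

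Within the chemokine reads, the groups did not overlap in the share of the CXCR3 ligands or of Cxcl12. Over the 9 chemokines there were 1002, 563 and 778 reads in LSN replicates 1, 2 and 3, against 657 and 1459 reads in Vehicle replicates 1 and 2. The CXCR3 ligands Cxcl9 and Cxcl10 held 31.5, 29.7 and 36.8% of these reads in the LSN tumours, against 15.4 and 11.8% in the Vehicle tumours. Cxcl12 held 48.2, 54.2 and 36.0% in the LSN tumours, against 68.2 and 69.8% in the Vehicle tumours. The lowest LSN share of the CXCR3 ligands had an exact 95% binomial interval of 25.9 to 33.6%, and the highest Vehicle share one of 12.7 to 18.4%. Ccl5, Ccl3 and Ccl4 together held 17.8, 13.1 and 21.7% in the LSN tumours and 10.2 and 12.0% in the Vehicle tumours. Ccl2 held 1.90 to 2.66% in the LSN tumours and 2.74 and 4.80% in the Vehicle tumours, and the CXCR2 ligands 0.355 to 2.96% in the LSN tumours and 3.50 and 1.58% in the Vehicle tumours. With each gene divided by its length the CXCR3 ligands were at 29.7, 35.0 and 29.1% in the LSN tumours and 20.5 and 15.3% in the Vehicle tumours, and Cxcl12 at 14.5, 17.9 and 9.58% in the LSN tumours and 27.0 and 26.5% in the Vehicle tumours, whereas the summed share of Ccl5, Ccl3 and Ccl4 overlapped. The shares of a tumour sum to the whole, so a low share of one class raises the others. These groupings were compared after the counts had been seen and have no test. The gene that made up the CXCR3 share was not the same in each LSN tumour, as Cxcl10 led it in LSN replicate 2 and Cxcl9 in LSN replicate 3. In LSN replicate 1 the pair was nearly level, with 173 reads of Cxcl9 and 143 of Cxcl10 but 11.6 and 12.8 TPM per length.

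**Figure D4:**
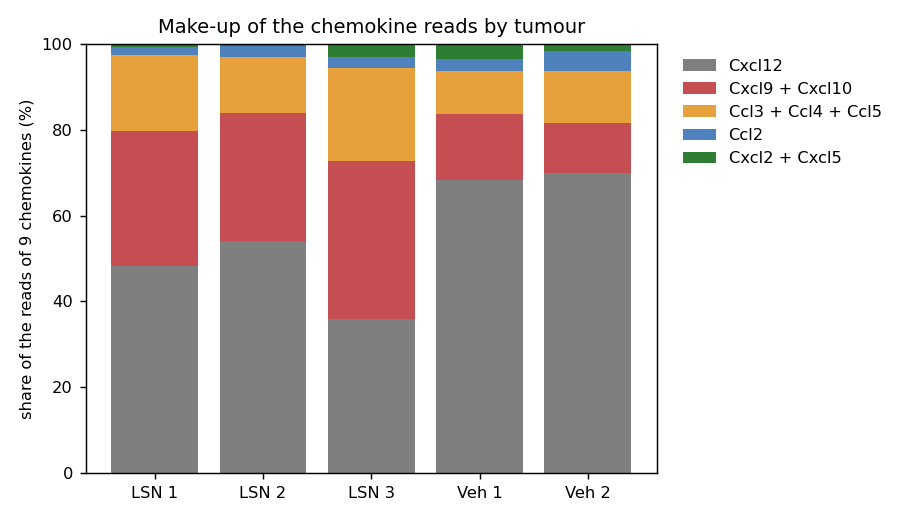
Share of each ligand class in the reads of the 9 chemokines (%), 1 bar per tumour, LSN at the left and Vehicle at the right. Cxcl9 with Cxcl10 takes 29.7 to 36.8% in the LSN tumours and 11.8 and 15.4% in the Vehicle tumours, and Cxcl12 36.0 to 54.2% in the LSN tumours and 68.2 and 69.8% in the Vehicle tumours.

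Vehicle replicate 2 had the highest level of 4 of the 10 genes, Ccl2, Ccl3, Cxcl12 and Icam1, where it was highest for 21.4% of all genes tested. LSN replicate 2 was lowest for 4 genes, Cxcl9, Ccl2, Ccl4 and Icam1, and Vehicle replicate 1 for another 4, Cxcl10, Ccl5, Ccl3 and Cxcl2. The shares of all genes for which these tumours were lowest were not computed, so these counts mark out neither tumour. Across the 5 tumours, the members with the closest patterns were Ccl2 and Cxcl12, with a root mean square difference of 0.34 in centred log2 CPM, then Ccl5 and Ccl3 at 0.36 and Ccl5 and Ccl4 at 0.41. The CXCR3 ligands Cxcl9 and Cxcl10 were far apart, at 1.66, as were the CXCR2 ligands Cxcl2 and Cxcl5, at 2.15, the most of all 45 pairs. Among 14829 protein-coding genes, the nearest to Icam1 were AA986860, Ajuba and Tcf7l2, at 0.08 to 0.13. The nearest to Cxcl12 was Msrb3 at 0.07, to Cxcl10 Slc7a7 at 0.04, to Ccl3 Sh2d3c at 0.06, to Ccl4 Cd86 at 0.09, to Ccl5 Fam234b at 0.10 and to Ccl2 Cytip at 0.14. Cxcl9 lay nearest to Kcnh5, at 0.22, and Gbp2b, at 0.34. Gbp2b rested on few reads, with 0.663, 0 and 0.953 CPM in LSN replicates 1, 2 and 3 and 0.0538 and 0.0558 CPM in Vehicle replicates 1 and 2. With 5 tumours and so many genes, such likeness describes these libraries.

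Single tumours set the sign of 6 of the 10 fold changes. Cxcl9 was above 0, and Cxcl5, Cxcl12 and Icam1 were below 0, whichever tumour was left out, with ranges of 1.45 to 2.44, -3.92 to -2.07, -1.55 to -0.32 and -2.23 to -0.69. Without Vehicle replicate 2, Ccl3 was at 0.88, and without Vehicle replicate 1, Ccl5 was at -0.25 and Cxcl10 at -0.11. Ccl4 was at -0.17 without LSN replicate 1. No member passed the adjusted threshold in any of these fits, in which a group left with 1 tumour is assumed to vary like the other.

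**Figure D5:**
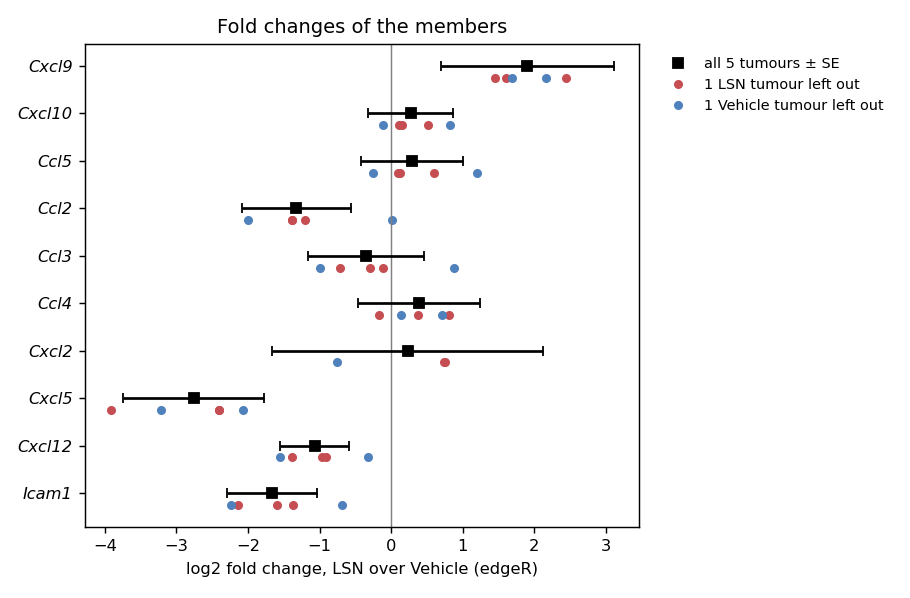
Log2 fold change of LSN over Vehicle by edgeR for each of the 10 genes, with squares and bars for all 5 tumours ± SE and small points for fits without 1 LSN tumour (red) or 1 Vehicle tumour (blue). Points of Cxcl9, Cxcl5, Cxcl12 and Icam1 stay on one side of 0, and for Cxcl2 the fit without Vehicle replicate 2 is not drawn, since the Vehicle side then has 0 counts.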

How the data were processed

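Per the labels' protocols, RNA of flash-frozen lung tumours was sequenced as paired ends from libraries that do not keep the strand, and the authors mapped reads to mm10 with STAR. The labels also name DESeq2. No source used here names the counting program or the annotation. The authors deposited raw read counts per gene for 5 tumours, with a gene length in bases and no other normalization. From these counts, LSN and Vehicle tumours were compared with the edgeR 4.0.16 quasi-likelihood F test (R 4.3.3, robust, TMM, filterByExpr at min.count 10 and min.total.count 15), two-sided, with Benjamini-Hochberg adjustment over 17906 genes. CPM are TMM-scaled. TPM used the deposited length. Log2 CPM used a prior count of 2.

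The 10 genes and all lists were chosen with earlier results of these data known, and no list was tested as a set. Genes named beside the 10 were listed receptors, integrins, NF-kB and interferon genes, the 3 smallest p of each pathway list and the nearest patterns. Alternatives were DESeq2 1.42.0, limma-voom 3.58.1, other scalings, filters and leaving out each tumour. The tests were tried on simulated counts with the same spread set for every gene. That trial does not measure their power in these tumours. A count of 3 equals 0.159 to 0.167 CPM, and intervals cover counting error only. The labels give no batch. Some genes of the lists are not reported here.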

Additional observations from a re-analysis of the deposited data

How the results depend on the processing

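No paired analysis was possible because the labels give tumour numbers that differ between all samples, and the replicate numbers used here only name them. Genes past the adjusted threshold numbered 0 in edgeR with TMM, RLE or no scaling, with either other count filter, without the robust fit and with each tumour left out (a range of 0 to 0), and 0 in limma-voom, against 111 in DESeq2, and the cause was not tested. Members past it numbered 0 under all of these and in DESeq2, and leaving out each tumour gave 0 to 0. At an unadjusted p under 0.05, edgeR had 764 genes, limma-voom 858 and DESeq2 1201, and edgeR had 1181 without LSN replicate 1, 505 without LSN replicate 3 and 407 without Vehicle replicate 2. Members at that level numbered 2 in the main test, between 0 (LSN replicate 3 or Vehicle replicate 2 left out) and 3 (LSN replicate 1 left out). Tools, scalings and filters turned the sign of 0 members. Leaving out single tumours turned 6 fold changes, and the log2 values ran from -1.99 to 0.0058 for Ccl2 and -0.998 to 0.88 for Ccl3 (turned without Vehicle replicate 2), from -0.25 to 1.19 for Ccl5, -0.11 to 0.82 for Cxcl10 and -0.75 to 6.005 for Cxcl2 (turned without Vehicle replicate 1), and from -0.17 to 0.81 for Ccl4 (turned without LSN replicate 1). The 6.005 of Cxcl2 is set against a Vehicle tumour at 0 counts and is no measure of size, and Cxcl2 was filtered out without LSN replicate 3. The median of all genes moved between -0.05 with total counts and 0.09 without Vehicle replicate 2. The share of genes above 0 was 53.2% with TMM, 54.0% with RLE and 45.0% with total counts. The medians of the CXC and CX3C chemokines were -1.70 with the filter of 1 CPM in 2 tumours, which removed the genes with few reads, -1.91 without LSN replicate 3 and -0.39 without Vehicle replicate 1, and that of the other CC chemokines was -1.61 without LSN replicate 3. Shares per length and marker sums without Chil3, Hdc or Vwf were added after the data had been seen. Depth limits Cxcl2 and Cxcl5, with at most 23 counts in any tumour.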

Other observations

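Some chemokine genes outside the 10 also ranged widely between tumours, and they were picked out after their values had been seen. Cxcl13, the attractant of B cells, had 4.36, 122.4 and 107.4 CPM in LSN replicates 1, 2 and 3, against 500.8 and 2.96 CPM in Vehicle replicates 1 and 2, so that each group held low and high tumours. The summed B and plasma cell markers did not follow it, at 40.4, 104.2 and 165.1 CPM in the LSN tumours and 102.1 and 288.0 CPM in the Vehicle tumours. Ccl6 and Ccl9, chemokines of mouse myeloid cells, reached 322.5 and 41.3 CPM in Vehicle replicate 2, against 30.9 and 5.54 CPM in Vehicle replicate 1, with 31.0 to 66.0 and 5.95 to 29.5 CPM in the LSN tumours. Marco and Chil3, markers of alveolar macrophages, were also highest in Vehicle replicate 2, at 69.7 and 1159 CPM, against 1.40 and 181.1 CPM in Vehicle replicate 1, with 1.18 to 8.58 and 35.5 to 382.9 CPM in the LSN tumours. Cxcl3, a CXCR2 ligand like Cxcl2, was highest in LSN replicate 3, at 4.13 CPM, against 0 and 0.268 CPM in LSN replicates 1 and 2 and 0.484 and 0.726 CPM in the Vehicle tumours, and Cxcl2 was highest in the same tumour. None of these genes passed the adjusted threshold in edgeR or DESeq2, and no explanation was tested.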
